A study of Homo sapiens with 6 samples.

Results

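H3K4me2 (dimethylated lysine 4 of histone H3) was examined at the genes that encode LSD1 (KDM1A) and 4 proteins related to it or bound to it, KDM1B, RCOR1, HDAC1 and HDAC2. A peak record was a member when it overlapped a gene body (hg19) or the 5 kb on either side of it. By this rule 106 of 355320 records were members, 30 of 99997 in the vehicle list, 37 of 128134 in the GSK 4 h list and 39 of 127189 in the GSK 24 h list. Merging overlapping member records of the 3 lists gave 43 regions, 6 at KDM1A, 6 at KDM1B, 20 at RCOR1, 9 at HDAC1 and 2 at HDAC2.

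The records come from chromatin immunoprecipitation sequencing (ChIP-seq) of LNCaP, a prostate cancer cell line that responds to androgen, in 3 groups of 2 replicates. All groups were held in charcoal-stripped serum, which is depleted of androgen, before treatment. The vehicle group was labelled as vehicle without GSK, and the other groups as DHT with GSK2879552, an LSD1 inhibitor, for 4 hrs (GSK 4 h) or 24 hrs (GSK 24 h). The treatment protocol names the inhibitor and not the androgen DHT, so the effects of DHT and of the inhibitor cannot be told apart here. The authors combined both replicates of a group into 1 peak list, so no value below has a replicate error and no difference between lists was tested. Intervals cover counting error only.

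LSD1 removes methyl groups from mono- and dimethylated H3K4. RCOR1 (CoREST) bridges LSD1 to nucleosomes and to the histone deacetylases HDAC1 and HDAC2, and together they form a corepressor complex that strips active marks from chromatin. KDM1B (LSD2) is the other flavin-dependent H3K4 demethylase and does not work through CoREST. At active genes H3K4me2 typically lies on both sides of the start site, around a nucleosome-poor gap, and at enhancers within or outside gene bodies.

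The promoters of 3 members are shown because the results turn on these starts. KDM1A encodes the target of the inhibitor. RCOR1 had the lowest GSK 24 h summit height (defined below) relative to vehicle among the 5 starts, 0.327. By fold enrichment KDM1A was lowest, at 0.457, beside 0.671 at RCOR1. HDAC1 was the gene whose start was higher by 1.5-fold or more in height in both GSK lists. The promoters are RefSeq sequences (GRCh38.p14) from 250 bases before to 50 bases after the annotated start. All 3 are on the plus strand, at chr1:23019218-23019517, chr14:102592399-102592698 and chr1:32291833-32292132. Capitals mark GC boxes (GGGCGG on either strand) and CCAAT boxes (CCAAT on either strand), and overlapping matches run together.
KDM1A: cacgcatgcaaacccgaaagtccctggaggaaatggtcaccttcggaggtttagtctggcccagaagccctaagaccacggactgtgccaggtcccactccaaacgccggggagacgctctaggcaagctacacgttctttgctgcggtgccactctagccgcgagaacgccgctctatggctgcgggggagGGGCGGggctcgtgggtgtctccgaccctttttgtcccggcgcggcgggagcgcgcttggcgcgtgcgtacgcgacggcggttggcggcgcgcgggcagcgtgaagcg
RCOR1: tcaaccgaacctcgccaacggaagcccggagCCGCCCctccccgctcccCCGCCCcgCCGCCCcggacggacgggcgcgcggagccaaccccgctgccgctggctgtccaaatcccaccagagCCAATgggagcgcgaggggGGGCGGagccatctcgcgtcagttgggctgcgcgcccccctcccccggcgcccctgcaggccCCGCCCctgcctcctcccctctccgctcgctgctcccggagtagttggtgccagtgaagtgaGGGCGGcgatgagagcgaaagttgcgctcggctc
HDAC1: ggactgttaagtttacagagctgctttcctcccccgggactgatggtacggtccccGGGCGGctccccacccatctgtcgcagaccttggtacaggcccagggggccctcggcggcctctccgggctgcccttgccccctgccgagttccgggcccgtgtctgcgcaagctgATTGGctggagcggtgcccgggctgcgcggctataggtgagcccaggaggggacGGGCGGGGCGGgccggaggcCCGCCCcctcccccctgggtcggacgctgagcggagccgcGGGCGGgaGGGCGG
The KDM1A promoter held 1 GC box, the RCOR1 promoter 6 and the HDAC1 promoter 6, and 1 CCAAT box was found in each of the last 2. KDM1B held 4 GC boxes and HDAC2 none. Among all 35116 promoters of this length, 45.0% held a GC box, 34.6% a CCAAT box and 11.5% a TATA box (TATAAA on either strand), which none of the 5 members held. The members had 24 (HDAC2) to 39 (KDM1B) CpG dinucleotides, against a median of 14 over all promoters, and 64.0% to 74.7% GC, against 58.7%. All 5 are thus CpG-rich promoters, of the kind that usually carries H3K4 methylation. The starts used for distances below are the 5′ ends of the hg19 gene bodies, and their match to these GRCh38 starts was not analysed here.

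The members lay in windows of 74.2 kb (KDM1A, chromosome 1, gene body 23345941 to 23410184, hg19), 78.5 kb (KDM1B, chromosome 6, 18155560 to 18224084), 147.9 kb (RCOR1, chromosome 14, 103058996 to 103196913), 51.5 kb (HDAC1, chromosome 1, 32757708 to 32799224) and 45.04 kb (HDAC2, chromosome 6, 114257320 to 114292359, on the minus strand). No exons or UTRs of this build were used, so a region is placed only as inside or beside a gene body. The RefSeq gene table (GRCh38.p14) puts TPMT before the start of KDM1B on the other strand, MARCKSL1 past the end of HDAC1, LUZP1 at the end of KDM1A and the noncoding HDAC2-AS2 at the start of HDAC2. Signal near those ends may belong to either gene.

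Member records covered 20.0 kb (5.04% of the windows) in vehicle, 21.7 kb (5.47%) in GSK 4 h and 22.3 kb (5.62%) in GSK 24 h. Whole lists covered 1.99%, 2.38% and 2.50% of the sequence between their outermost records, so these genes were more densely marked than the genome at large in every list. The number of member records relative to vehicle was 1.23 (GSK 4 h) and 1.30 (GSK 24 h), beside 1.28 and 1.27 for the whole lists. Extra records at these genes were thus about as many as the longer GSK lists would give.

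HDAC1 was the most covered gene and KDM1A and HDAC2 were marked mainly at their starts. At HDAC1 8.15, 7.54 and 8.21 kb were covered (vehicle, GSK 4 h, GSK 24 h), or 15.8%, 14.6% and 15.9% of its window. The shares were 4.95%, 5.55% and 4.53% at RCOR1, the longest gene. They were 1.49%, 2.41% and 3.76% at KDM1A, where the innermost vehicle record had its summit 1997 bp past the start. At KDM1B 2.31%, 3.14% and 4.34% were covered. HDAC2 had 2 records in every list, both beside its start, and 3.58%, 3.80% and 2.68% of its window covered. Of the 5 genes, KDM1A and KDM1B were therefore those with more covered length in each later list. The whole lists also rose in this order (1.99%, 2.38% and 2.50%).

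**Figure D1:**
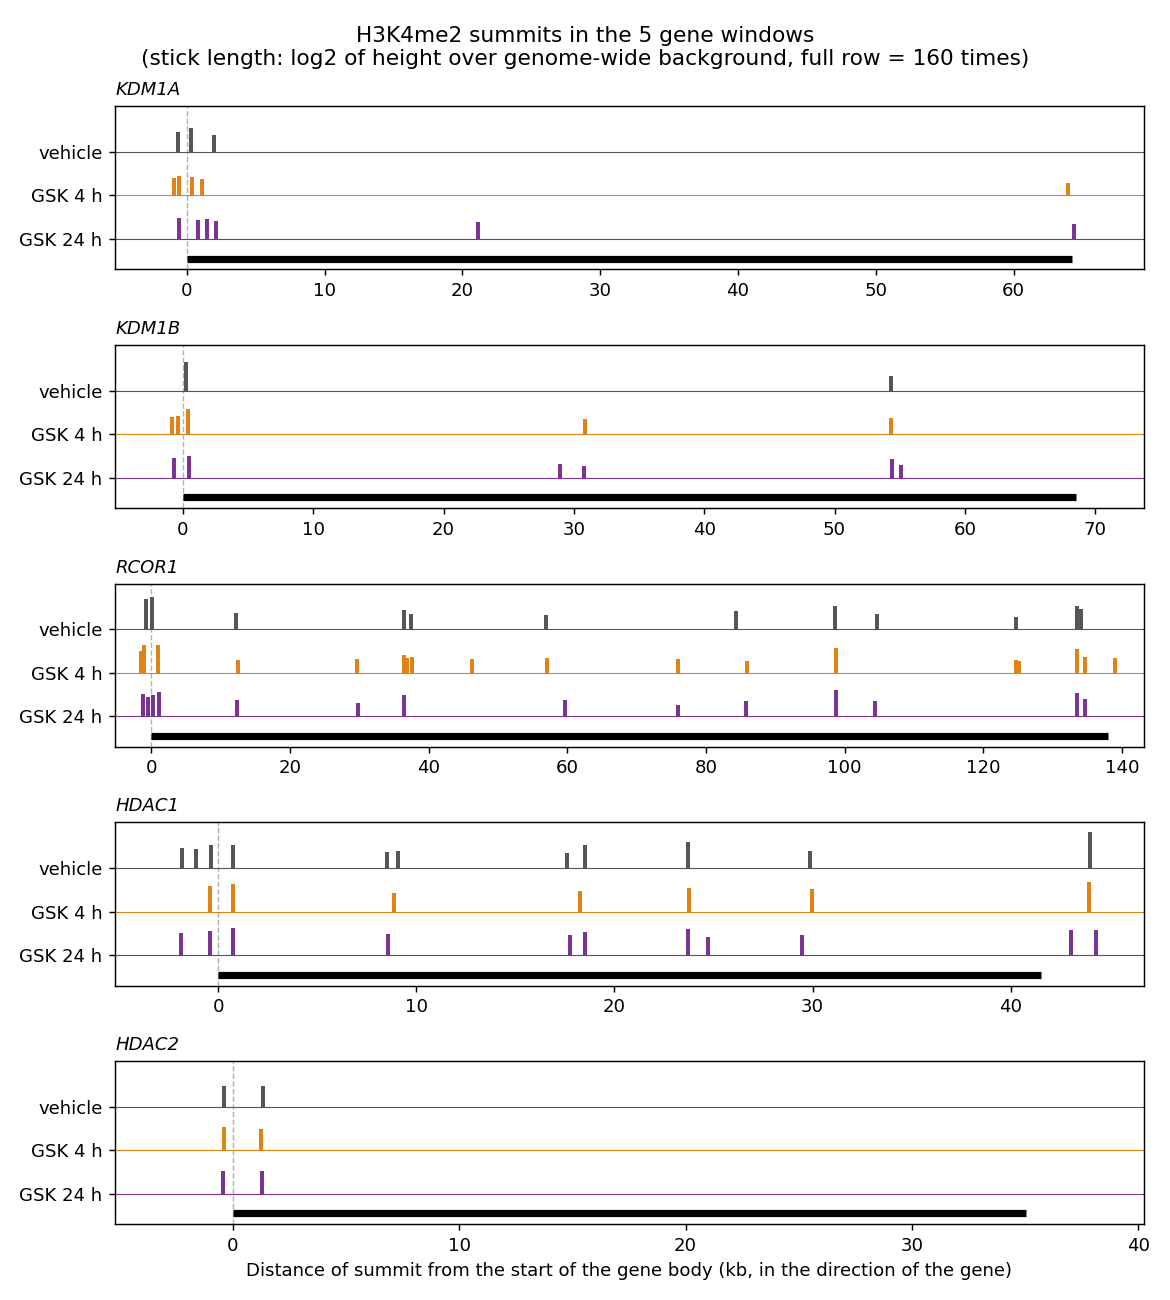
Position of every H3K4me2 summit in the 5 windows, by list, as distance from the start of the gene body in kb (horizontal axis); the black bar is the gene body and stick length is the log2 of summit height over the genome-wide background. KDM1A and HDAC2 are marked mainly at the start, RCOR1 and HDAC1 also inside the gene, and the tallest stick is the vehicle summit past the end of HDAC1 (148.7 times background).

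Levels were compared between lists by summit height. The height is the number of fragments that cover a summit, recovered from the fold enrichment and p-value of the record, as a multiple of the background level over that list's whole genome (2.08 fragments for vehicle, 1.88 for GSK 4 h and 1.97 for GSK 24 h). It allows for depth, which was 1.07 (GSK 4 h) and 0.952 (GSK 24 h) relative to vehicle. Fragment length, taken as the length of the shortest record of each list, differed too (221, 186 and 219 bp). The background level grows with it, while the number of fragments over a narrow summit may not. For such summits the division can raise GSK 4 h heights relative to the other lists. A difference of 1.5-fold or more was counted, and its share over all regions shared by the same lists is given as background.

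The start regions of the demethylase genes and of RCOR1 were lower in both GSK lists, that of HDAC1 was higher in both, and that of HDAC2 differed by less than 1.5-fold. In each case the region that covers or is nearest to the start was taken.

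At KDM1A the start region in vehicle lay just inside the gene, from 23346017 to 23346423 on chromosome 1, with its summit 290 bp past the start. Its summit was covered by 59 fragments in vehicle (height 28.3, 95% interval 21.5 to 36.5), by 24 in GSK 4 h (height 12.8, 8.17 to 18.97) and by 27 in GSK 24 h (height 13.7, 9.05 to 19.98). Both GSK intervals lay below the vehicle interval and overlapped each other. The height relative to vehicle was 0.4505 (0.268 to 0.735) in GSK 4 h and 0.485 (0.296 to 0.777) in GSK 24 h. Within its own list it was at percentile 88.1, 34.8 and 28.2 by fold enrichment and 82.98, 56.1 and 61.4 by height (vehicle, GSK 4 h, GSK 24 h). The lists differ in length, and the GSK lists stood in opposite orders by these measures. The GSK 24 h record here, with its summit at 828 bp, did not overlap the vehicle record and was joined to it through a GSK 4 h record. The place of the vehicle summit was thus in no GSK 24 h record.

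Other signal around the KDM1A start did not share this difference. On the upstream side, heights were 14.9 (vehicle), 13.8 (GSK 4 h) and 16.8 (GSK 24 h). Their ratios to vehicle, 0.929 (0.5297 to 1.62) and 1.13 (0.670 to 1.91), had intervals that held 1. Farther inside, GSK 24 h had a record at 1498 bp with a height of 14.8 that neither other list had. A region around 2.0 kb was in vehicle (height 10.6) and GSK 24 h (12.2) and not in GSK 4 h.

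At KDM1B, which encodes the CoREST-independent demethylase, the start region ran from 18155586 to 18156861 on chromosome 6 and had the tallest summit of the window in every list. Its summit was covered by 113 fragments in vehicle (height 54.2, 44.7 to 65.2), 61 in GSK 4 h (height 32.4, 24.8 to 41.6) and 41 in GSK 24 h (height 20.9, 14.97 to 28.3). Vehicle was the highest list, its interval overlapping neither GSK interval, and GSK 24 h was the lowest. Relative to vehicle the height was 0.598 (0.4305 to 0.823) in GSK 4 h and 0.385 (0.262 to 0.554) in GSK 24 h. GSK 24 h was at 0.643 (0.422 to 0.972) of GSK 4 h. 2 of these 3 ratios were not past 1.5-fold by other measures: fold enrichment gave 0.694 for GSK 4 h against vehicle, and 0.711 for GSK 24 h against GSK 4 h, which was 0.758 without the fragment length. The percentile within each list was 95.1, 87.2 and 66.7 by fold enrichment and 91.8, 86.2 and 77.6 by height.

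Upstream of KDM1B, on the side of TPMT, vehicle had no record while both GSK lists did. The region, from 18154645 to 18155258, reached a height of 12.2 in GSK 4 h, in the higher of its 2 records there, and 15.8 in GSK 24 h. Its local background, the tags in the surrounding 10 kb, was 3.68 and 3.35 times the genome-wide level in the GSK lists and 4.41 times at the strong vehicle summit beside it. A higher local background raises the height that the peak caller asks for, and its part in the missing vehicle record was not tested.

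RCOR1, the scaffold of the complex, had the highest start region of the 5 genes in vehicle. The region ran from 103058961 to 103060437 on chromosome 14, and its summit was covered by 185 fragments in vehicle (height 88.8, 76.4 to 102.5), 88 in GSK 4 h (height 46.8, 37.5 to 57.6) and 57 in GSK 24 h (height 28.99, 21.96 to 37.6). The lists were in the same order as at KDM1B, and again the vehicle interval overlapped neither GSK interval. Relative to vehicle the height was 0.527 (0.404 to 0.683) in GSK 4 h and 0.327 (0.238 to 0.442) in GSK 24 h. These ratios compare different places, since the summits were 160 bp (vehicle), 1038 bp (GSK 4 h) and 1116 bp (GSK 24 h) past the start. The place of the vehicle summit was in no GSK 4 h record. GSK 24 h was at 0.6201 (0.436 to 0.875) of GSK 4 h. By fold enrichment, which sets a summit against its own surroundings, the ratios to vehicle were 0.719 and 0.671, neither past 1.5-fold. GSK 24 h against GSK 4 h was 0.934 by fold enrichment and 0.730 without the fragment length, also not past 1.5-fold. Percentiles of the RCOR1 start within each list (vehicle, GSK 4 h, GSK 24 h) were 83.2, 63.3 and 60.7 by fold enrichment. By height they were 94.97, 93.97 and 88.1, so by that measure its rank differed little between vehicle and GSK 4 h.

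The upstream side of the RCOR1 start, from 103057607 to 103058661, was named after its values were seen. Heights there were 62.9 (vehicle), 44.1 (GSK 4 h) and 22.9 (GSK 24 h), with ratios to vehicle of 0.702 (0.526 to 0.931) and 0.364 (0.254 to 0.515), or 0.967 and 0.754 by fold enrichment. By height, both sides of this start were thus lower in GSK 24 h. At KDM1A the upstream region differed by less than 1.5-fold, and at KDM1B vehicle had no upstream record to compare.

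HDAC1, a deacetylase of the complex, went the other way. Its start region, from 32757780 to 32758884 on chromosome 1, was covered by 50 fragments in vehicle (height 23.99, 17.8 to 31.6), 83 in GSK 4 h (height 44.1, 35.1 to 54.7) and 76 in GSK 24 h (height 38.7, 30.5 to 48.4). Vehicle was lowest, its interval clear of the GSK 4 h interval and overlapping the lower end of that of GSK 24 h. Relative to vehicle the height was 1.84 (1.28 to 2.67) in GSK 4 h and 1.61 (1.11 to 2.35) in GSK 24 h. Fold enrichment gave 1.34 in place of 1.61, which is not past 1.5. Without the fragment length, 1.84 became 1.55. The percentile within each list was 33.9, 79.1 and 69.04 by fold enrichment and 79.2, 92.9 and 95.1 by height, so the rank of vehicle depended on the measure.

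Upstream of the HDAC1 start the lists were closer. The nearest upstream region had heights of 23.03 (vehicle), 32.4 (GSK 4 h) and 25.9 (GSK 24 h), and its ratios of 1.41 (0.948 to 2.099) and 1.13 (0.744 to 1.71) had intervals that held 1. Farther upstream, a record at 1828 bp (vehicle, height 15.8) and 1869 bp (GSK 24 h, height 19.3) was missing from GSK 4 h. A vehicle record 1136 bp upstream, with a height of 14.4, was in no GSK list.

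HDAC2, the close paralogue of HDAC1, differed little between the lists. Its start region, from 114291858 to 114293584 on chromosome 6, was covered by 38 fragments in vehicle (height 18.2, 12.9 to 25.03), 43 in GSK 4 h (height 22.8, 16.5 to 30.8) and 42 in GSK 24 h (height 21.4, 15.4 to 28.9). Its other region, about 1.3 kb inside the gene, had heights of 18.2, 17.5 and 22.4. The 4 ratios to vehicle ran from 0.962 to 1.253, and each interval held 1, with bounds from 0.585 to 1.99. Changes within these bounds could not be told from counting error.

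**Figure D2:**
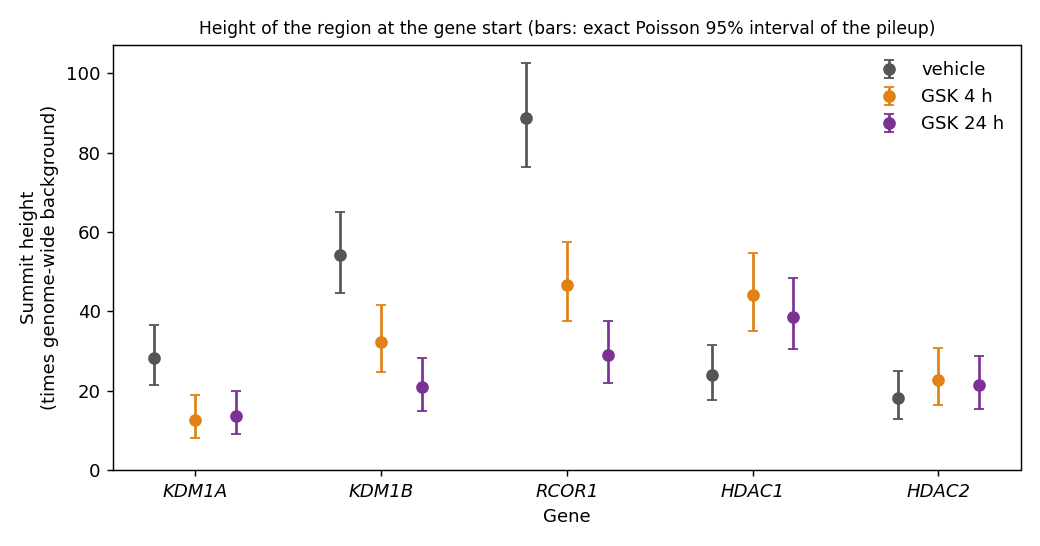
Height of the region at the start of each gene (vertical axis, times the genome-wide background) in the 3 lists; points are single lists and bars the exact Poisson 95% interval of the pileup. Vehicle is the highest list at KDM1A, KDM1B and RCOR1 and the lowest at HDAC1 and HDAC2. At HDAC2 all intervals overlap, and at HDAC1 the vehicle interval overlaps that of GSK 24 h.

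Summits at the lower starts also lay farther into the gene in the GSK lists. At KDM1B the highest summit was 215 bp past the start in vehicle, 420 bp in GSK 4 h and 479 bp in GSK 24 h. At RCOR1 it was 160 bp in vehicle, 1038 bp in GSK 4 h and 1116 bp in GSK 24 h, where a lower record at 219 bp (height 18.8) remained near the vehicle position. For KDM1A the positions were 290, 381 and 828 bp, the last in a record that did not overlap the vehicle record. By contrast they were 728, 748 and 750 bp at HDAC1, and 393, 382 and 416 bp upstream at HDAC2. Over all shared regions, 27.8% (GSK 4 h) and 26.0% (GSK 24 h) had the highest summit at least 200 bp from that of vehicle, a distance set after the data were seen. Among the members these were 5 of 22 and 8 of 22. The median distance was 94.5 and 90 bp over shared members, beside 94 and 85 bp over all shared regions. At the KDM1A start the GSK 4 h summit was 91 bp from that of vehicle, below these GSK 4 h medians. A vehicle record reached over the start base itself at RCOR1 and HDAC2, and a GSK 4 h record at HDAC2. No GSK 24 h record covered any of the 5 starts. The share of all gene starts that each list covered was not analysed here, so this count has no background.

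Across the windows, 22 regions were shared by vehicle and GSK 4 h. Of these 5 were lower and 2 higher in GSK 4 h by 1.5-fold or more (22.7% and 9.09%), beside 12.5% lower and 23.8% higher over all 77261 shared regions. For GSK 24 h, 5 of 22 were lower and 4 higher (22.7% and 18.2%), beside 12.6% and 15.5% of 78574. These backgrounds hold regions of all strengths. Members in all 3 lists were stronger, with a median vehicle height of 23.5, beside 12.95 for all such regions. All such regions were also ranked by height in the other GSK list. In the weakest and strongest 10%, 5.31% and 36.1% were lower in GSK 4 h than in vehicle, and 25.3% and 5.44% higher. For GSK 24 h, 3.53% and 57.5% were lower, and 20.2% and 0.426% higher. That strongest 10% held 2 members, the RCOR1 start and a region past the end of HDAC1, both lower. The median ratio over all shared members was 0.988 (GSK 4 h) and 1.13 (GSK 24 h), beside 1.18 and 1.11 over all shared regions. Between the GSK lists, 6 of 26 regions were lower and 3 higher in GSK 24 h, beside 17.6% and 7.24% of 89459 (23.1% and 11.5% of the members). Without the fragment length this balance turned, to 2 lower and 10 higher. By fold enrichment, 2 regions were lower in GSK 4 h than in vehicle, and 3 were lower and 0 higher in GSK 24 h. Without the fragment length, 8 were lower in GSK 4 h than in vehicle and 2 higher. Of the regions past 1.5-fold, the counting interval left out 1 for 6 of 7 (GSK 4 h against vehicle), 7 of 9 (GSK 24 h against vehicle) and 4 of 9 (GSK 24 h against GSK 4 h). With so few regions these shares are descriptions, and both GSK comparisons use the same vehicle list.

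**Figure D3:**
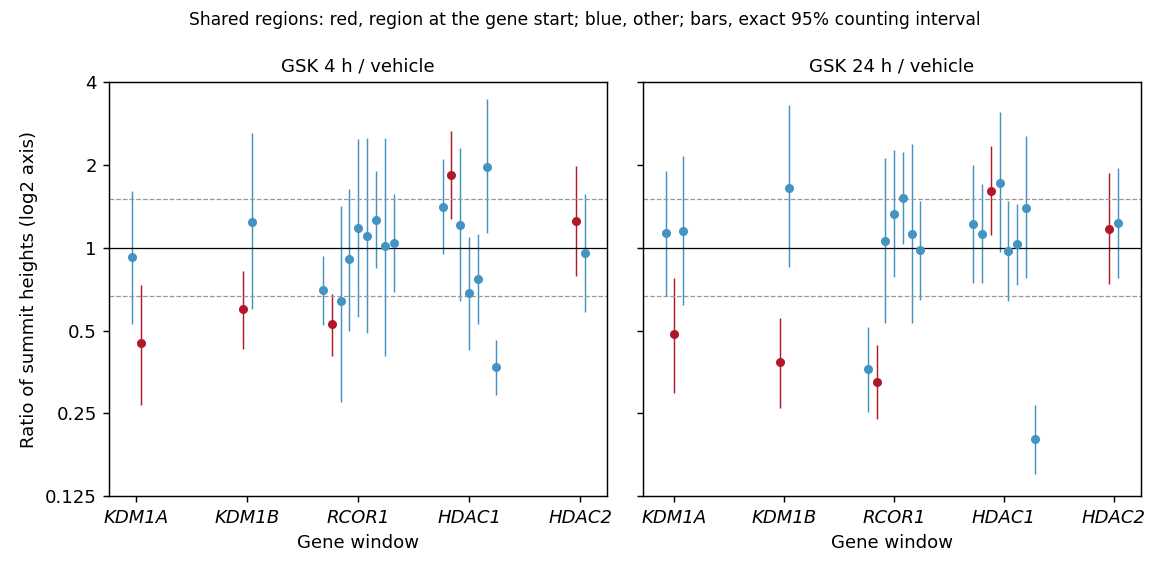
Ratio of summit height to vehicle (vertical axis, log2 scale) for each shared region of the 5 windows, with its exact 95% counting interval, for GSK 4 h (left) and GSK 24 h (right); red points are the regions at gene starts and dashed lines mark 1.5-fold. The start points of KDM1A, KDM1B and RCOR1 lie below the lower line and that of HDAC1 above the upper line in both panels.

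Of the regions shared with vehicle, the one with the lowest ratio of heights in both GSK lists was past the end of HDAC1, on the side of MARCKSL1, which encodes a relative of the actin-binding protein MARCKS. The region, from 32800279 to 32802459 on chromosome 1, was covered by 310 fragments in vehicle (height 148.7, 132.6 to 166.3), 103 in GSK 4 h (height 54.7, 44.7 to 66.4) and 59 in GSK 24 h (height 30.01, 22.8 to 38.7). No interval overlapped another. Relative to vehicle the height was 0.368 (0.292 to 0.461) in GSK 4 h and 0.202 (0.1501 to 0.267) in GSK 24 h. By fold enrichment the ratios were 0.560 and 0.547, and the start of KDM1A was lower, at 0.491 and 0.457. The region past HDAC1 and the RCOR1 start were the 2 members in the strongest 10% by GSK 4 h height. Of all regions there, 57.5% were lower in GSK 24 h than in vehicle, and the median ratio was 0.512. In vehicle and GSK 4 h the region past HDAC1 was a single record of 1635 and 1939 bp, whereas GSK 24 h had 2 records of 706 and 937 bp with a gap between them. The start of HDAC1 and this region are about 44 kb apart and differed in opposite directions. Their vehicle heights were 23.99 and 148.7, and what part strength had in the opposite directions was not tested.

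Farther inside HDAC1, beyond the start region, there were 4 shared regions, and by height none was lower by 1.5-fold in either GSK list. About 8.6 to 9.1 kb past the start the heights were 10.1 (vehicle), 12.2 (GSK 4 h) and 17.3 (GSK 24 h), and the ratio for GSK 24 h was 1.72 (0.968 to 3.11), or 1.45 by fold enrichment. At about 29.5 to 30.0 kb they were 10.6, 20.7 and 14.8, and the ratio for GSK 4 h was 1.96 (1.14 to 3.48). Near 23.7 kb a region had heights of 35.0, 27.1 and 36.1, with intervals that overlapped. Every list had a record at each of these places, so the pattern of marking inside HDAC1 was shared and its ratios to vehicle were close to or above 1, except for GSK 4 h at 18.3 kb, with a ratio to vehicle of 0.687 (0.424 to 1.096), and at 23.8 kb, with 0.774 (0.5301 to 1.12).

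Inside RCOR1, regions were found with heights near, above and below those of vehicle. The region with the highest fold percentile of its window lay 133.5 kb past the start, near the end of the gene, with heights of 24.95 (vehicle), 26.04 (GSK 4 h) and 24.4 (GSK 24 h). Its fold percentiles were 91.6, 88.2 and 92.7. Near 98.6 kb the heights were 23.5, 29.8 and 35.6, and the ratio to vehicle was 1.27 (0.847 to 1.896) in GSK 4 h and 1.51 (1.04 to 2.23) in GSK 24 h, where fold enrichment gave 1.13. The start and this inner region of RCOR1 thus differed in opposite directions in GSK 24 h. Closer to the start, about 12.3 to 12.5 kb inside, the heights were 9.12, 5.84 and 9.66. The ratio there was 0.641 (0.276 to 1.42) for GSK 4 h against vehicle, past 1.5-fold but with an interval that held 1, and 0.784 by fold enrichment. GSK 24 h against GSK 4 h was 1.65 (0.748 to 3.85), and GSK 24 h against vehicle 1.06 (0.531 to 2.12).

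At KDM1B the inner region, about 54.3 kb past the start, had heights of 7.68 (vehicle), 9.56 (GSK 4 h) and 12.7 (GSK 24 h). Its ratio for GSK 24 h was 1.66 (0.8502 to 3.32), with an interval that held 1, and 1.39 by fold enrichment. In GSK 24 h a further small record lay at 55.1 kb (height 6.10).

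Of the 43 regions, 19 were in all 3 lists (44.2%, beside 47.9% of all 151839 merged regions). Those in a GSK list and not in vehicle numbered 16 (37.2%, beside 39.8%), of which 7 were in both GSK lists, 4 in GSK 4 h alone and 5 in GSK 24 h alone (background 11.0%, 14.5% and 14.3%). Regions of vehicle and 1 GSK list were 6 (13.95%, beside 6.81%), 3 with GSK 4 h (background 2.97%) and 3 with GSK 24 h (3.84%), and 2 were in vehicle alone (4.65%, beside 5.45%). Without a vehicle record were 3 of 6 regions at KDM1A, 4 of 6 at KDM1B and 9 of 20 at RCOR1, but 0 of 9 at HDAC1 and 0 of 2 at HDAC2.

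Most of the regions without a vehicle record were weak. Their median height was 6.91 in GSK 4 h (11 regions, 4.78 to 19.1) and 8.14 in GSK 24 h (12 regions, 4.58 to 15.8), where members in all 3 lists had medians of 22.8 and 22.4. All regions of the same class had medians of 6.91 and 6.61. The lowest height of any vehicle record was 3.84, reached with 8 fragments, so a missing record does not mean that the mark was absent. At KDM1A the strongest by fold percentile lay 21.1 kb inside the gene in GSK 24 h alone (fold enrichment 6.82, percentile 83.5, height 10.17, 20 fragments). Another, at the end of the gene on the side of LUZP1, was in GSK 4 h (height 5.31, 10 fragments) and GSK 24 h (height 8.14, 16 fragments). At KDM1B they lay at 28.9 kb (GSK 24 h, height 6.61) and 30.8 kb (GSK 4 h, height 7.97, and GSK 24 h, height 5.09).

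In RCOR1, 14 regions were missing from at least 1 list, and the 3 with the highest fold percentile were as follows. A region at about 85.8 kb was in GSK 4 h (height 5.31) and GSK 24 h (height 8.14). Vehicle alone had a record of 997 bp at 84.4 kb with a height of 11.995, covered by 25 fragments. GSK 24 h alone had a record at 59.7 kb with a height of 9.66.

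A wider measure, the tags in the 10 kb around a summit, gave the same order of lists at RCOR1 and past the end of HDAC1. This measure was added after the data were seen, and it includes the tags of the summit itself. At RCOR1 the density around the start was 11.1 times the genome-wide level in vehicle (1044 tags), 7.99 in GSK 4 h (808 tags) and 5.18 in GSK 24 h (465 tags). Past the end of HDAC1 it was 15.1, 9.75 and 5.30 times (1421, 987 and 476 tags). At KDM1B it was 4.41, 3.72 and 3.36 times, a smaller difference than that of the summit.

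At the other starts the 10 kb density differed less. At KDM1A it was 2.86 (vehicle), 2.61 (GSK 4 h) and 3.11 (GSK 24 h) times the genome-wide level, so GSK 24 h, with a lower summit than vehicle, had no lower 10 kb count. The density at the HDAC1 start was 5.26, 5.999 and 6.35 times, and at the HDAC2 start 3.19, 3.54 and 3.28 times. How far the tags of the summits themselves set these densities was not tested.

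**Figure D4:**
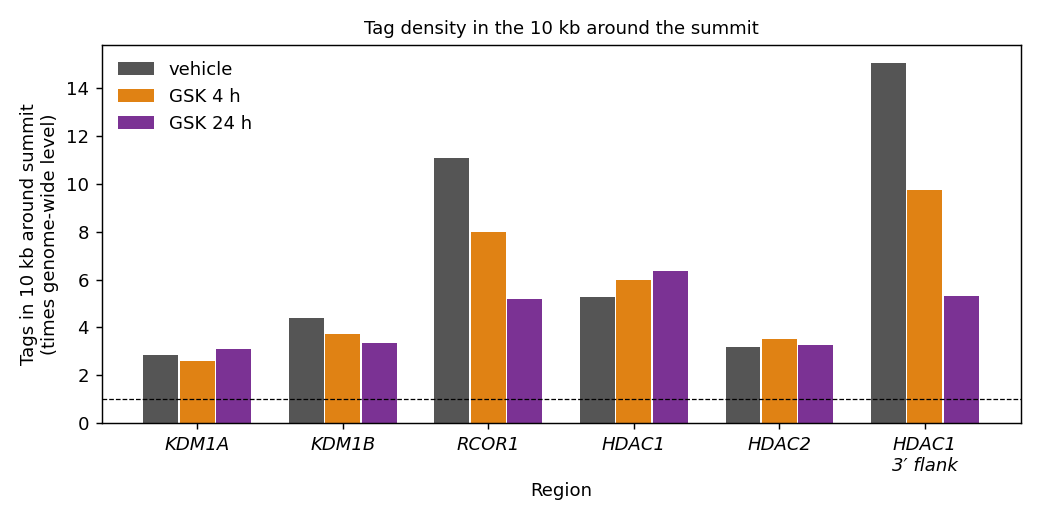
Tags in the 10 kb around the highest summit of the region at each gene start, and of the region past the 3′ end of HDAC1, as a multiple of the genome-wide level of the same list (vertical axis, dashed line at 1); bars are single lists, with no replicate error. The bars decrease from vehicle to GSK 24 h at KDM1B, RCOR1 and the HDAC1 3′ flank, and increase slightly at the HDAC1 start.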

How the data were processed

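H3K4me2 ChIP-seq of LNCaP cells was deposited as 1 peak list per group, which per the labels combines 2 replicates. The submitters' processing notes name hg19, BWA 0.7.2-r351, SAMtools 0.1.18 and MACS2 2.0.10.20131216; their settings are not given in the sources used here. Per the deposited values, each record holds a fold enrichment (a ratio to local background), a -log10 p-value and a -log10 q-value (at least 1.32) and a display score, none normalised between lists. The members and lists were chosen with earlier results of these data known.

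Records off the autosomes, X and Y were left out. A whole-number summit pileup k and a background b were found such that the fold was (k + 1)/(b + 1) and the p-value the Poisson chance of exceeding k. Agreement was within 0.001 of the -log10 p for 99.998% of records in vehicle and 100% in the GSK lists. The lowest background was taken as the genome-wide level, and the others equalled whole numbers of tags in 10 kb. The recovery of pileups was tested on folds and p-values computed with the same formula from recovered vehicle values. Such a test checks the inversion only and cannot show that the formula is the right one. Fragment length was not given and was taken as the length of the shortest record of each list. Depth, the genome-wide level over this length, was 9.43 (vehicle), 10.1 (GSK 4 h) and 8.98 (GSK 24 h) tags per kb.

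Records of the lists overlapping by at least 1 bp were merged, the highest record of a list standing for it. Pileups have exact Poisson and ratios exact binomial 95% intervals, for counting error only. Named regions were those at gene starts, those with the highest fold percentile, those missing from a list and those past 1.5-fold, with 3 per window where over 5 met a condition. Alternatives changed the q limit, flanks, merging, fold threshold, list length and height measure. Python 3.11.15, NumPy 2.4.6, SciPy 1.17.1, pandas 2.3.3 and matplotlib 3.10.9 were used. Other genes of the corepressor complexes were not analysed here, since no hg19 annotation was used.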

Additional observations from a re-analysis of the deposited data

How the results depend on the processing

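No paired analysis was possible because the replicates of a group share 1 peak list, which also meant that none could be left out. Start regions kept their direction relative to vehicle with fold enrichment in place of height and without the fragment length. At RCOR1 fold enrichment moved the ratios to 0.719 (GSK 4 h), 0.671 (GSK 24 h) and 0.934 (GSK 24 h against GSK 4 h). When records were joined only on an overlap of 50% of the shorter, 21 regions were shared by GSK 24 h and vehicle and 4 were lower. The vehicle and GSK 24 h records at the KDM1A start were then not joined, so their ratio rests on the 1 bp rule. By fold enrichment, local density enters the ratio, so a region that is lower together with its surroundings differs less.

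Alternatives named q5 and q10 kept records with a -log10 q from 5 or 10 upwards. Under q10, member records numbered 17 (vehicle), 15 (GSK 4 h) and 19 (GSK 24 h), so GSK 4 h had fewer than vehicle. With records within 1 kb merged, GSK 4 h had 24. Covered lengths in kb (vehicle, GSK 4 h, GSK 24 h) were 18.4, 19.0 and 20.3 under q5, 14.2, 14.9 and 15.45 under q10, and 15.7, 15.5 and 16.9 in gene bodies alone. With 10 kb flanks they were 20.0, 21.7 and 22.3, since no further record was reached, and with lists of equal length 19.0 (GSK 4 h) and 20.6 (GSK 24 h).

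Under q10, 12 regions were in all 3 lists, 4 in GSK lists without vehicle and 2 in vehicle and 1 GSK list. Under q5 the last class held 3 and vehicle alone 1. With records within 1 kb merged, GSK lists without vehicle held 10, vehicle and 1 GSK list 3 and vehicle alone 1. Vehicle alone held 1 in gene bodies and 4 with lists of equal length.

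Of the regions shared by GSK 4 h and vehicle, 3 were lower and 1 higher under q10, 8 and 5 past 5/4-fold, 2 and 0 past 2-fold, 2 lower by fold enrichment, and 8 lower without the fragment length. For GSK 24 h against vehicle, 3 were lower in gene bodies, 2 higher under q10, 0 higher past 2-fold, and 3 lower and 0 higher by fold enrichment. For GSK 24 h against GSK 4 h, none was higher (0) under q5 or q10 or with lists of equal length, 10 were higher past 5/4-fold, 0 were lower and 0 higher past 2-fold, 2 were lower by fold enrichment, and 2 were lower and 10 higher without the fragment length. Percentiles of the start regions (vehicle, GSK 4 h, GSK 24 h) by -log10 p were 87.4, 46.1 and 48.3 at KDM1A, 93.2, 90.7 and 77.9 at KDM1B, 94.2, 91.5 and 84.9 at RCOR1, 69.9, 93.6 and 92.9 at HDAC1, and 68.6, 76.7 and 80.05 at HDAC2. By height they were 82.98, 56.1 and 61.4 at KDM1A, 91.8, 86.2 and 77.6 at KDM1B, 94.97, 93.97 and 88.1 at RCOR1, 79.2, 92.9 and 95.1 at HDAC1, and 71.5, 76.96 and 78.4 at HDAC2. A planned background of regions of like strength took the strength from the third list of each pair. For both comparisons with vehicle that was the other GSK list, which is not independent of the difference. For GSK 24 h against GSK 4 h it was vehicle. There, of the strongest 10% of regions in all 3 lists, which included the RCOR1 start, 43.5% were lower in GSK 24 h and 0.412% higher. Summits of members had median pileups of 23 to 31.5 fragments, and intervals of single ratios often held 1 even past 1.5-fold.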
